A study of Mus musculus with 9 samples.

Results

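Satellite repeats include the tandemly arrayed sequences of mouse heterochromatin. RNA of repeats grouped as satellites was counted here in cultured satellite cells, which are muscle stem cells. The shared word is a coincidence of names. The members are 7 of the 1146 rows of the repeat count table, chosen by name: GSAT_MM, MMSAT4, MurSatRep1, MurSAT1 and CENSAT_MC carry SAT or Sat in the name, and SYNREP_MM and IMPB_01 were listed individually. A further listed name, ZP3AR_MM, had no row of that spelling. The row called ZP3AR is shown beside the members and is not counted among them. Names were used as the table gives them, and each row sums all copies of a subfamily, so no genome position belongs to a value. Whether the copies counted lie in tandem arrays or in heterochromatin was not tested.

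In mouse chromosomes the major satellite, GSAT_MM, fills the pericentromeric blocks next to the centromere. These arrays are normally methylated on CpG, carry methylated histone H3 at lysine 9 set by the Suv39h enzymes, and are bound by the HP1 proteins. Uhrf1 brings the maintenance DNA methyltransferase Dnmt1 to newly replicated DNA, and loss of such factors is a known setting in which heterochromatic repeats have been examined for transcription.

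The series holds 9 libraries of satellite cells from hindlimb muscle of 9-week-old mice, and 6 of them have repeat counts. The 3 Control libraries are from mice given oil. The 3 Mutant libraries are from mice given tamoxifen, which the series describes as Uhrf1-deficient in satellite cells, as 150 µl of a 20 mg/ml solution on 5 days. Cells of both groups were seeded at 5000 per cm2 and grown for 3 days before total RNA was extracted and depleted of ribosomal RNA. The Cre Control libraries, also from tamoxifen-treated mice, were not analysed here. Neither the alleles nor the promoter driving Cre are given in the sources used here. Oil and tamoxifen divide the groups exactly as Uhrf1 status does, so their effects cannot be told apart. The labels do not state that replicate libraries are from different mice. The p-values therefore reflect variation among these libraries alone, and part of it may be technical.

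The library labelled Control 3 stood apart from the other Control libraries before any satellite was considered. For IAPEz-int, the internal part of an endogenous retrovirus, Control 1 had 4372 CPM and Control 2 had 5877 CPM, while the library labelled Control 3 had 140887 CPM. Mutant 1, 2 and 3 had 93168, 119411 and 185365 CPM. CPM are repeat counts scaled to a common library size with edgeR's TMM factors, and they say nothing of the part repeats take of the whole RNA. Libraries held from 1794698 to 2245124 repeat counts. Each satellite result is therefore given with all 6 libraries and without the library labelled Control 3. The authors' deposited repeat table also leaves that library out. Its mean of normalised counts was matched in all 1093 rows within a relative difference of 4.7e-10 by the counts of the other 5 libraries, against differences of up to 0.496 with all 6.

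Most satellite reads came from MMSAT4 and MurSatRep1, and hardly any from the major satellite. MMSAT4 gave 72971 counts over the 6 libraries, MurSatRep1 44636 and IMPB_01 26948, against 100 for GSAT_MM, 48 for MurSAT1, 28 for SYNREP_MM and 2 for CENSAT_MC. These are counts per subfamily and not per length, so they do not rank how strongly each sequence is transcribed. The sources used here do not say how reads with several map positions were treated, and the part of that choice in the low counts of GSAT_MM was not tested. MMSAT4 and MurSatRep1 together made up between 79.4% and 83.3% of the satellite counts of a library.

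As a share of all repeat counts the satellites were level across the libraries. Those totals include IAPEz-int, high in the library labelled Control 3 and in Mutant, so a share also moves with the total. The 7 members summed to 1.21%, 1.25% and 1.15% of repeat counts in Control 1, Control 2 and the library labelled Control 3. They summed to 1.10%, 1.27% and 1.18% in Mutant 1, 2 and 3. The lowest and the highest of these shares were both Mutant, so the groups overlapped. On the TMM scale the Control sum was 11236 ± 968 CPM and the Mutant sum 12675 ± 1454 CPM (SD, n = 3 per group), a ratio of 1.13, which turned to 0.984 when only total repeat counts were used for scaling. Without the library labelled Control 3 the TMM ratio was 1.19. That total-count scaling moved the median log2 fold change of all subfamilies to −0.20, against −0.0026 with TMM factors. The ratio of 0.984 thus lay above the median subfamily.

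MMSAT4 had the highest count of the members and was the member nearest to a call. Control 1 had 5073 CPM, Control 2 had 5368 CPM and the library labelled Control 3 had 6324 CPM, while Mutant 1, 2 and 3 had 5479, 7065 and 6918 CPM. Mutant 2 and Mutant 3 were the highest, and Mutant 1 lay below the library labelled Control 3, so the groups overlapped. The Control mean was 5588 ± 654 CPM and the Mutant mean 6488 ± 876 CPM (SD, n = 3 per group). The log2 fold change of Mutant over Control was 0.22 (SE 0.11, 95% interval −0.05 to 0.48), with an edgeR adjusted p of 0.490. With total-count scaling it was 0.02, which is 0.22 above the median of all subfamilies, and without Mutant 1 it was 0.33 (SE 0.09, edgeR adjusted p = 0.248).

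Leaving out the library labelled Control 3 put all 3 Mutant libraries above the remaining Control libraries for MMSAT4, as it did for 21.3% of subfamilies. The log2 fold change became 0.31 (SE 0.09), with an edgeR adjusted p of 0.0644, just over the threshold of 0.05. DESeq2 on the same 5 libraries gave 0.31 (SE 0.10) with an adjusted p of 0.0371, and the authors' deposited table has 0.31 (SE 0.10) with an adjusted p of 0.0327. On these 5 libraries MMSAT4 thus rose by DESeq2, as run here and as deposited, but not by edgeR. The deposited values come from the same counts, so they are not separate support. The library left out had the highest MMSAT4 of the Control libraries, so leaving it out raised the estimate. Over the alternatives tried, its adjusted p ran from 0.0371 to 0.933.

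MurSatRep1 followed MMSAT4 library by library. Control 1 had 3279 CPM, Control 2 had 3243 CPM and the library labelled Control 3 had 3852 CPM, while Mutant 1, 2 and 3 had 3332, 4255 and 4196 CPM. The same 3 libraries were high as for MMSAT4, namely the library labelled Control 3, Mutant 2 and Mutant 3. The Control mean was 3458 ± 342 CPM and the Mutant mean 3928 ± 517 CPM (SD, n = 3 per group), and the log2 fold change of 0.18 (SE 0.11) had an edgeR adjusted p of 0.532. It was −0.01 with total-count scaling, a change of sign that left it 0.19 above the median of all subfamilies. Without Mutant 1 it was 0.30 (SE 0.08, edgeR adjusted p = 0.248). Leaving out the library labelled Control 3 gave 0.27 (SE 0.09), with an adjusted p of 0.105 in edgeR and of 0.0939 in the authors' deposited table.

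**Figure D1:**
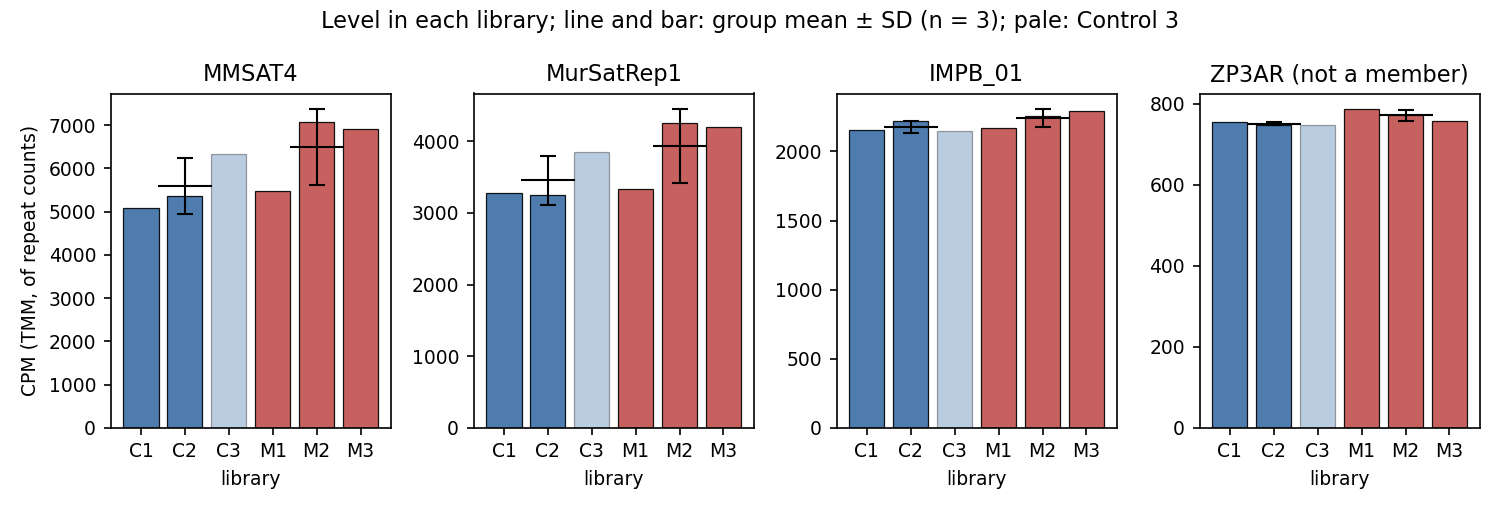
TMM-normalised CPM of MMSAT4, MurSatRep1, IMPB_01 and ZP3AR in each library (C1 to C3 Control, blue, with the library labelled Control 3 pale, and M1 to M3 Mutant, red), with group mean and SD in black. MMSAT4 and MurSatRep1 are high in C3, M2 and M3 and low in C1, C2 and M1, while IMPB_01 stays between 2150 and 2294 CPM.

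On the TMM scale IMPB_01 stayed close to level in every library. Control 1 had 2158 CPM, Control 2 had 2224 CPM and the library labelled Control 3 had 2150 CPM, while the Mutant libraries had 2173, 2258 and 2294 CPM. The groups overlapped, with means of 2177 ± 40.4 CPM and 2242 ± 62.2 CPM (SD, n = 3 per group). Its log2 fold change of 0.04 (SE 0.04) had an edgeR adjusted p of 0.658, and the 95% interval in fold terms ran from 0.968 to 1.10. With total-count scaling it was −0.16, which is 0.04 above the median of all subfamilies. Without the library labelled Control 3 the TMM value was 0.03 (SE 0.04).

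The row ZP3AR, not counted as a member, was as level as IMPB_01 on the TMM scale. Control 1, Control 2 and the library labelled Control 3 had 756, 749 and 749 CPM, and the Mutant libraries had 787, 772 and 759 CPM. All 3 Mutant values lay above all 3 Control values, by a narrow margin, which 8.54% of the 984 subfamilies tested also did. A log2 fold change of 0.04 (SE 0.04) had an edgeR adjusted p of 0.697.

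Ratios of counts inside a library do not depend on how libraries are scaled. A ratio alone does not show which of its rows changed. As a share of repeat counts, without TMM factors, IMPB_01 ran from 0.200% in the library labelled Control 3 to 0.255% in Control 2. MMSAT4 ran from 0.546% in Mutant 1 to 0.658% in Mutant 2, so IMPB_01 was the level row on the TMM scale only. The ratio of MMSAT4 to MurSatRep1 counts was 1.55, 1.66 and 1.64 in Control 1, Control 2 and the library labelled Control 3, and 1.64, 1.66 and 1.65 in the Mutant libraries. MMSAT4 and MurSatRep1 thus kept nearly the same proportion in all 6 libraries. The ratio of MMSAT4 to IMPB_01 counts was 2.35 and 2.41 in Control 1 and Control 2, 2.94 in the library labelled Control 3, and 2.52, 3.13 and 3.02 in Mutant 1, 2 and 3. That ratio was lowest in Control 1 and Control 2 and highest in Mutant 2 and Mutant 3. IMPB_01 to ZP3AR lay between 2.76 and 3.02 in all 6 libraries.

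**Figure D2:**
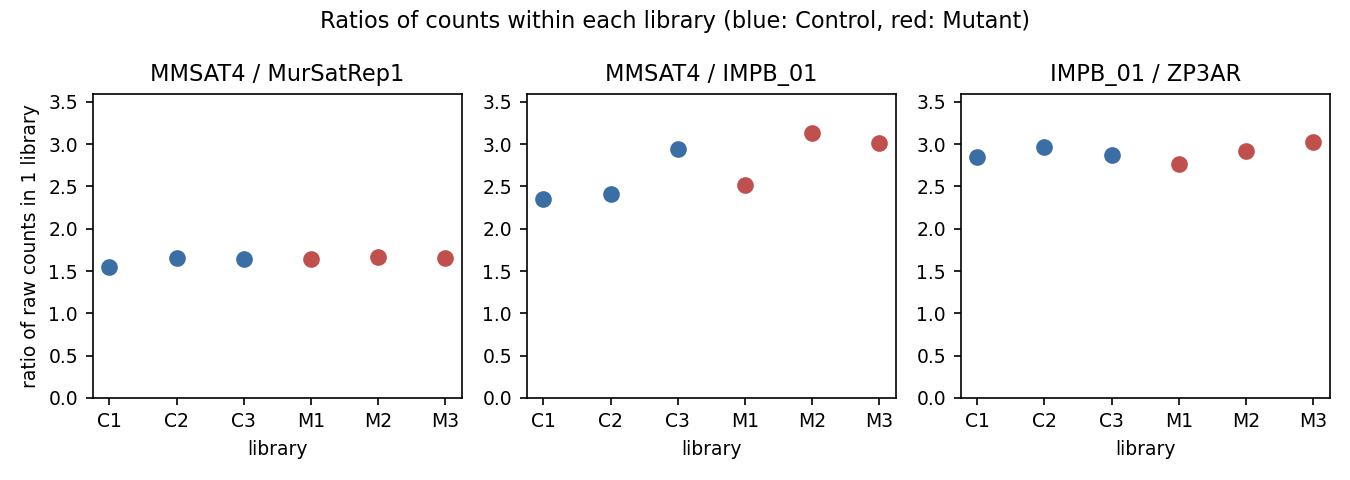
Ratios of raw counts within each library (C1 to C3 Control, blue, C3 being the library labelled Control 3, and M1 to M3 Mutant, red). MMSAT4 to MurSatRep1 runs from 1.55 to 1.66, while MMSAT4 to IMPB_01 runs from 2.35 in C1 to 3.13 in M2.

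The spread of MMSAT4 and MurSatRep1 inside a group was wide for repeats of their abundance. Their within-group SDs of log2 CPM were 0.19 and 0.17, ranks 18 and 20 among the 196 subfamilies with a mean of at least 500 CPM, whose median was 0.05. IMPB_01 had 0.03 and ZP3AR 0.02. In Mutant the highest library was 1.29 times the lowest for MMSAT4 and 1.28 times for MurSatRep1, against 1.06 for IMPB_01. The library labelled Control 3 exceeded the mean of Control 1 and Control 2 by a factor of 1.21 for MMSAT4 and 1.18 for MurSatRep1. Mutant 1 lay at 0.784 and 0.789 of the mean of Mutant 2 and Mutant 3. These differences between libraries of a group exceeded those between the group means, whose ratio was 1.16 for MMSAT4 and 1.14 for MurSatRep1. Control 1 and Control 2 alone differed by factors of 1.06 and 1.01.

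GSAT_MM, the major satellite, was counted 16, 22 and 7 times in Control 1, Control 2 and the library labelled Control 3, and 15, 23 and 17 times in Mutant 1, 2 and 3. The groups overlapped, and the library labelled Control 3 was the lowest. Its share of repeat counts was lowest in that library, 0.000346% (95% Wilson interval 0.000168 to 0.000715), and highest in Mutant 2, 0.00119% (0.000793 to 0.00179). PCR copies carry no molecular identifiers here, so these intervals describe counting error alone.

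The fit for GSAT_MM gave a log2 fold change of 0.50 (SE 0.34, edgeR adjusted p = 0.605) over 6 libraries and 0.24 (SE 0.33, edgeR adjusted p = 0.719) without the library labelled Control 3. In fold terms these are 1.41 (95% interval 0.812 to 2.45) and 1.18 (0.717 to 1.95). Those bounds hold variation between libraries as well as counting error, and fold changes within them remain possible. Per scaled library size, the 55 Mutant counts against 45 Control counts are a ratio of 1.40, with an exact 95% interval of 0.930 to 2.13 for counting error alone. Without the library labelled Control 3 that ratio was 1.18 (0.768 to 1.84). DESeq2 set no adjusted p for GSAT_MM with all 6 libraries, and the authors' deposited table gives 0.25 (SE 0.47, adjusted p = 0.906).

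MurSAT1 differed between the libraries on very few counts. It was counted 4 times in Control 1, 1 time in Control 2, 9 times in the library labelled Control 3, and 5, 10 and 19 times in Mutant 1, 2 and 3. The library labelled Control 3 lay above Mutant 1, so the groups overlapped, and with all 6 libraries MurSAT1 did not reach the filter on low counts. Per scaled library size its 34 Mutant counts against 14 Control counts are a ratio of 2.79 (exact 95% interval 1.46 to 5.63, counting error only).

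Without the library labelled Control 3, MurSAT1 passed the filter, but only through the 10 and 19 counts of Mutant 2 and Mutant 3, so its fitted values are a description. Every Mutant library exceeded both Control libraries, by 1 count in the case of Mutant 1 and Control 1, as was so for 21.3% of the 984 subfamilies tested with all 6 libraries. Its counts were then 34 against 5, a ratio of 5.55 (2.16 to 18.2, counting error only). The fitted log2 fold change was 2.40 (SE 0.76), with an edgeR adjusted p of 0.0974. In the authors' deposited table it is 2.42 (SE 0.93) with an adjusted p of 0.118. MurSAT1 passed in neither fit, and for the reason given neither value is read as a test.

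SYNREP_MM and CENSAT_MC were close to the limit of counting and did not pass edgeR's filter, with or without the library labelled Control 3. SYNREP_MM was counted 4, 7 and 6 times in Control 1, Control 2 and the library labelled Control 3, and 6, 2 and 3 times in Mutant. The groups overlapped, and the ratio of its 11 Mutant to 17 Control counts per scaled library size was 0.743 (exact 95% interval 0.315 to 1.68). Leaving the library labelled Control 3 out gave 0.816 (0.321 to 2.08), from 11 counts in each group. CENSAT_MC had 2 counts in Control 2 and 0 in the other 5 libraries. A count of 0, taken to allow 3 counts, allows a share of up to 0.000134% to 0.000167% of repeat counts, depending on the library.

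**Figure D3:**
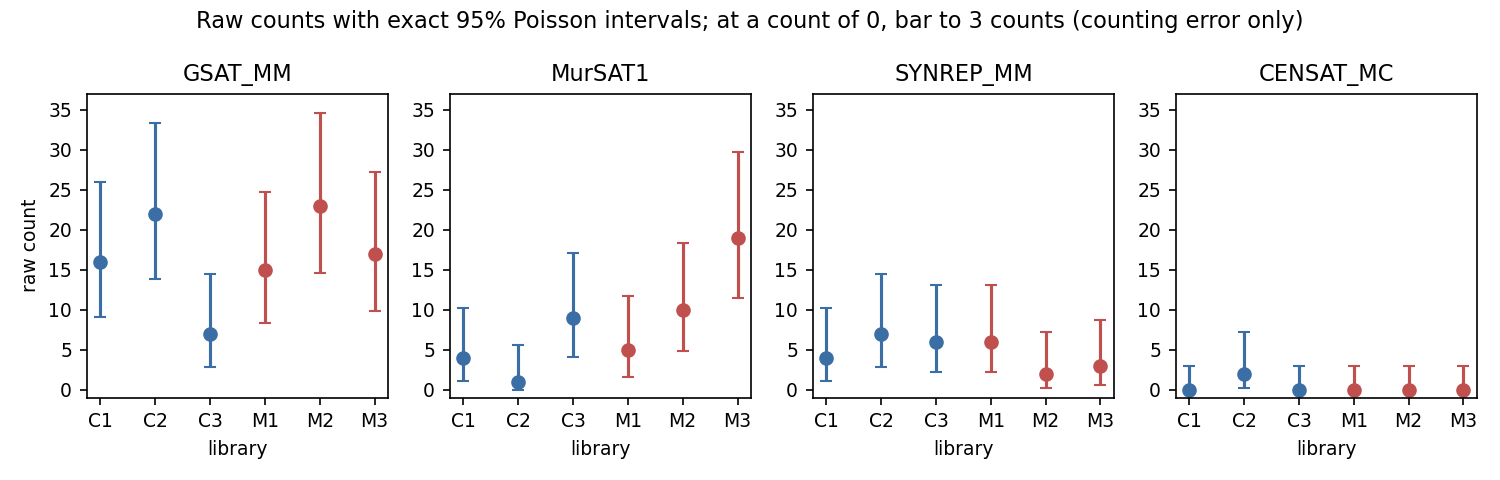
Raw counts of GSAT_MM, MurSAT1, SYNREP_MM and CENSAT_MC in each library (C1 to C3 Control, blue, C3 being the library labelled Control 3, and M1 to M3 Mutant, red), with exact 95% Poisson intervals for counting error, or a bar to 3 counts where the count is 0. GSAT_MM runs from 7 to 23 counts, and MurSAT1 has 1 count in C2 and 19 in M3.

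No member passed in edgeR, in either direction, with or without the library labelled Control 3. With all 6 libraries 4 of the 7 members were tested and 0 were called, against 0% of the 984 subfamilies, and 0 of the 4 had an unadjusted p below 0.05, against 11.3% of all. DESeq2 gave 3 of the 7 members an adjusted p there and called 0, against 2.38% of the 713 subfamilies with one, and 2 members, MMSAT4 and MurSatRep1, had an unadjusted p below 0.05, against 6.46% of all. Without the library labelled Control 3, edgeR tested 5 members and called 0, against 6.94% of 994 subfamilies called higher and 0.402% called lower. DESeq2 then called 1, MMSAT4, which was higher in Mutant, against 5.45% of 1065 subfamilies called higher and 0.282% called lower. In that edgeR fit MMSAT4 and MurSatRep1 had an unadjusted p below 0.05, as had 21.0% of all subfamilies, and so had MurSAT1, which entered through its Mutant counts. The authors' deposited table, which leaves out the same library, also had MMSAT4 as the 1 member called. Of its 1008 repeats 5.95% were called higher and 0.298% lower.

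**Figure D4:**
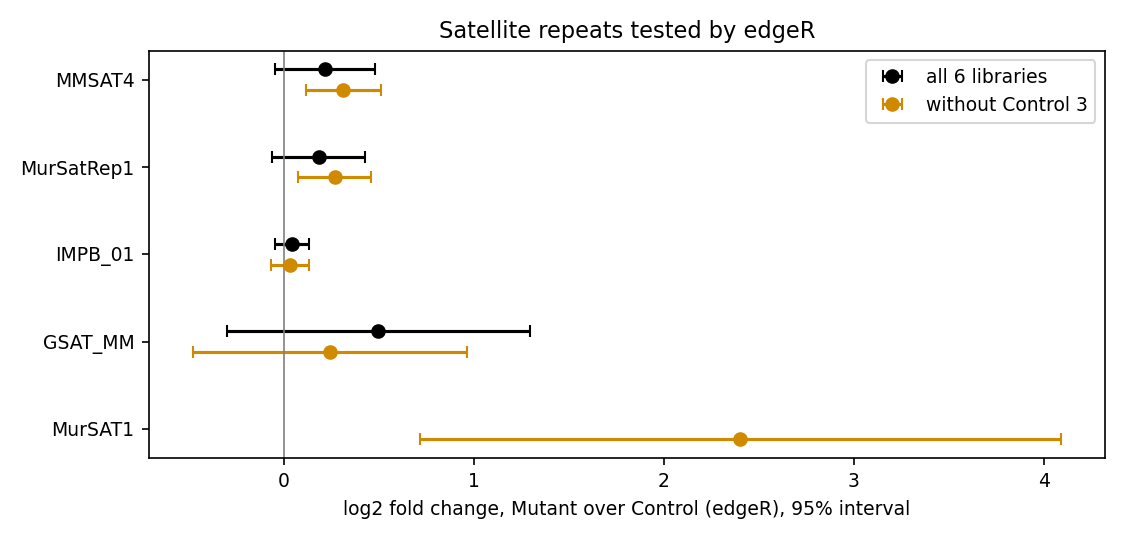
log2 fold change of Mutant over Control with 95% intervals for the satellite repeats tested by edgeR, with all 6 libraries (black) and without the library labelled Control 3 (orange). The intervals of MMSAT4 and MurSatRep1 cross 0 with all 6 libraries and not without that library, and that of IMPB_01 is narrow around 0.04. MurSAT1 was fitted only without that library. It passed the filter through its Mutant counts, so its interval is a description.

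The 4 members tested over all 6 libraries had positive log2 fold changes with a median of 0.20, a direction that total-count scaling turned for MurSatRep1 and IMPB_01. The median of all 984 subfamilies was −0.0026, and 49% of them were positive. Ranked from the highest, GSAT_MM stood at 44, MMSAT4 at 150, MurSatRep1 at 182 and IMPB_01 at 390. Without the library labelled Control 3, MMSAT4 stood at 131, MurSatRep1 at 164, GSAT_MM at 182 and IMPB_01 at 434 of 994.

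**Figure D5:**
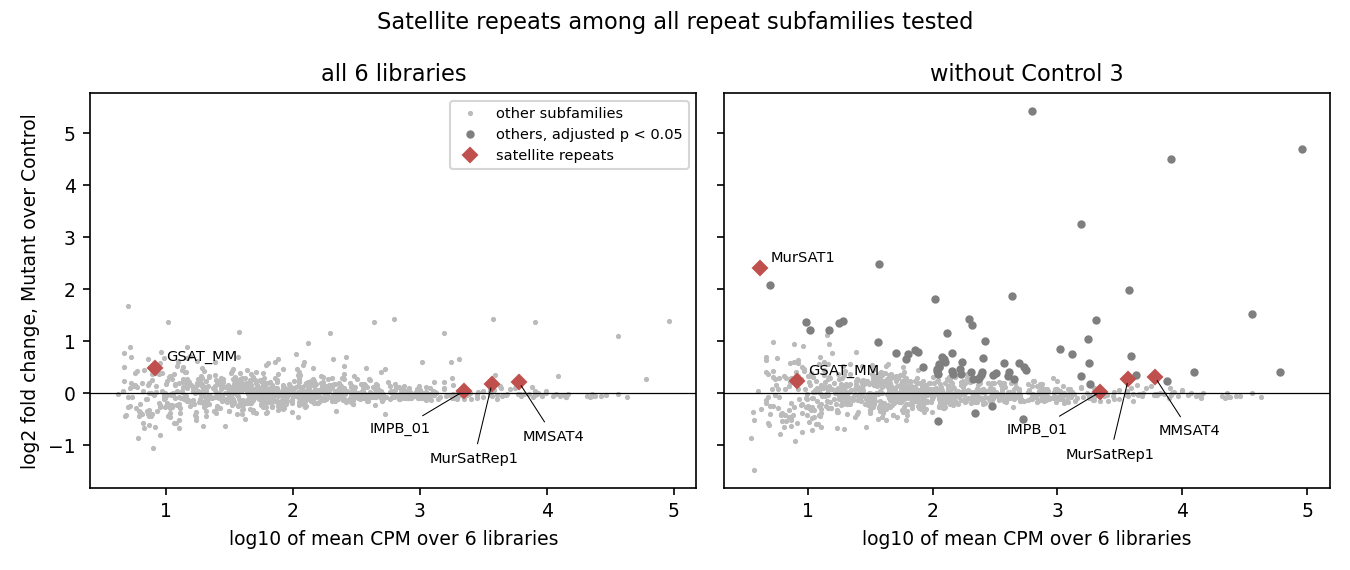
log2 fold change of Mutant over Control against the log10 of mean CPM for all subfamilies tested by edgeR, with all 6 libraries (left) and without the library labelled Control 3 (right). The satellite repeats (red diamonds) lie between 0.03 and 0.50 except MurSAT1, at 2.40 on the right, and dark grey points are the other subfamilies with an adjusted p below 0.05, 0 on the left and 73 on the right.

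The subfamilies whose levels were most like MMSAT4 over the 6 libraries were other repeats besides MurSatRep1. By Pearson's r of log2 CPM among 618 subfamilies with a mean of at least 100 counts, MLT1H-int (0.991), MTB-int (0.989), MurSatRep1 (0.986), MTA_Mm-int (0.982) and L3 (0.977) came first. MLT1H, MTB and MTA are long terminal repeat retrotransposons of the MaLR group, and L3 is an ancient LINE. For MLT1H-int, Control 1, Control 2 and the library labelled Control 3 had 209, 218 and 263 CPM, and Mutant 1, 2 and 3 had 235, 306 and 290 CPM. IMPB_01 ranked 160 with 0.658 and IAPEz-int 96 with 0.818. For GSAT_MM, MLT2C2 (0.933), RMER17A (0.910), MLT1J1 (0.877), LTR16C (0.874) and RLTR10C (0.868) came first of 619, on its 7 to 23 counts, and MMSAT4 reached 0.181. These values describe 6 points that share libraries and scaling, and MMSAT4 was chosen for this after its values were seen.

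Genes that act on heterochromatin fell in part, by modest amounts apart from Uhrf1. The authors' deposited gene table holds 33 of 34 listed pericentric heterochromatin factors. Of these 13 fell and 1 rose, against 8.11% and 9.02% of all 22631 genes. The 13 include Uhrf1, whose fall is part of the design. The median Control level of these factors was 39.3 TPM, and the shares among genes of like level were not computed. Changes are given as the test estimate, worked out here as the deposited statistic times its SE on the log2 scale. Its median was −0.28 over the 33 factors and 0.01 over all genes. It is not the log2 fold change deposited beside it, which was −2.47 for Uhrf1, −0.24 for Cbx5 and −0.34 for Cbx3. By the authors' deposited table Uhrf1 averaged 118 TPM in Control libraries and 20.4 TPM in Mutant libraries, with a test estimate of −3.12 (SE 0.60) and an adjusted p of 4.01e-06. Dnmt1, the maintenance methyltransferase, fell from 122 to 94.3 TPM, a test estimate of −0.37 (SE 0.06), by the authors' deposited table. Whether the Control means of that table hold the library labelled Control 3 is not known, so the values of genes below are not given without it.

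Some of the genes that write and bind lysine 9 methylation fell. By the authors' deposited table Suv39h1, a methyltransferase of lysine 9, fell from 58.2 to 45.7 TPM (test estimate −0.36, SE 0.07). Its paralogue Suv39h2, at 14.7 and 14.0 TPM, did not pass there, with an adjusted p of 0.766 set by the authors' deposited table. By the same authors' deposited table the HP1 genes Cbx1 (−0.48, SE 0.07), Cbx3 (−0.33, SE 0.05) and Cbx5 (−0.35, SE 0.05) fell. Cdca7, a partner of the remodeller Hells, fell from 39.3 to 27.7 TPM, a test estimate of −0.55 (SE 0.11) by the authors' deposited table. The 1 factor that rose, Kdm4a, a demethylase of lysine 9, was named after its value was seen. By the authors' deposited table it went from 36.7 to 41.2 TPM (0.19, SE 0.07), with an adjusted p of 0.0394.

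Centromere genes also fell in part. The authors' deposited table holds 25 of 26 listed genes of the centromere and the base of the kinetochore. Of these 12 fell and 1 rose, against 8.11% and 9.02% of all genes, with a median test estimate of −0.35 against 0.01. Their median Control level was 24.1 TPM, and the shares among genes of like level were not computed. Cenpa, the histone H3 variant of centromeres, fell from 175 to 155 TPM by the authors' deposited table. Its deposited log2 fold change was −0.18 and its test estimate −0.31 (SE 0.07). Cenpb, which binds a motif of the minor satellite, was at 70.4 and 64.3 TPM and did not pass, with −0.15 (SE 0.06) and an adjusted p of 0.0795 by the authors' deposited table. By the test estimate Sgo1, which guards cohesin at centromeres, fell (−0.51, SE 0.10), as did the kinetochore genes Cenpi (−0.51, SE 0.10) and Cenpn (−0.47, SE 0.14). The log2 fold changes in the authors' deposited table were −0.39 for Sgo1, −0.38 for Cenpi and −0.57 for Cenpn. Cenpt, named after its value was seen, rose from 27.8 to 35.5 TPM, a test estimate of 0.43 (SE 0.12), by the authors' deposited table. Whether these genes have any part in the satellite counts was not tested.

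The 8 listed markers of the muscle lineage summed to 3012 TPM in Control and 3058 TPM in Mutant of the authors' deposited table. Each list of other cells summed to less. By that table Pax7, Ncam1 and Des rose, and Vcam1, Cdh15, Itga7 and Myod1 fell. These are 3 and 4 of the 8 markers, against 9.02% and 8.11% of all genes. Myod1, a determination factor of muscle cells, averaged 1018 and 914 TPM and Pax7, which marks satellite cells, 23.1 and 29.6 TPM in Control and Mutant of the authors' deposited table. Of 5 macrophage and leukocyte markers found there, 2 rose and 0 fell, and their sum was 32.3 and 111 TPM, against 9.02% of all genes that rose and 8.11% that fell. Laptm5 rose from 25.1 to 84.8 TPM and Cd68 from 3.46 to 6.27 TPM, while Fcer1g (3.22 and 19.3 TPM), Csf1r (0.156 and 0.430 TPM) and Ptprc (0.381 and 0.303 TPM) did not pass, by the authors' deposited table. Of 4 endothelial markers 1 rose and 2 fell (sums 7.86 and 6.51 TPM), of 4 fibroblast markers 0 passed (31.1 and 46.3 TPM), and of 4 smooth muscle and pericyte markers 1 rose (447 and 456 TPM, of which Acta2 made up 422 and 421) in the authors' deposited table. That table gives group means only, and the part of other cell types in the satellite counts was not tested. In such bulk samples fewer cells of a type and less RNA per cell cannot be told apart.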

How the data were processed

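For 3 Control and 3 Mutant libraries the authors deposited raw counts of each repeat subfamily, and a repeat comparison whose columns are, per the file headers, a mean signal of normalised counts, a log2 fold change with its SE, a test score and p-values. The deposited gene table holds mean TPM per group with a log2 fold change, a test score and p-values. Per the submitters' processing notes the tools were featureCounts 2.0.1, STAR 2.7.6a, DESeq2 and Trim Galore 0.6.6, with the builds GRCm38 and mm10. The annotation of repeats and the counting of reads with several map positions are not given in the sources used here. In the count table and the gene table the header names stand 1 column to the left of the values.

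The quasi-likelihood test of edgeR 4.0.16 (R 4.3.3) was run on the whole count table after filterByExpr, with TMM scaling, with Benjamini-Hochberg adjustment over all subfamilies and a threshold of 0.05. SEs are the log2 fold change divided by the root of the F statistic. The fit was also run on simulated counts with a common spread and no outlying library. That run cannot show how the fit behaves with a library such as Control 3. DESeq2 1.42.0, other scaling, no filter, a replicate block and leaving out each library were alternatives. Total repeat counts ran from 1794698 to 2245124 per library. Values in every library are given for members with a mean of at least 10 counts, and also for the rarer ones. Genes named are Uhrf1, Dnmt1, Suv39h1, Suv39h2, Cbx5, Cenpa, Cenpb and the 3 largest called changes of each list at a mean of at least 10 TPM, and Cbx3, Kdm4a and Cenpt were added after their values were seen. Directions of genes follow the test estimate. The members and lists were chosen with earlier results of these data known. Libraries of a group differed by more than sampling noise, the closest pair with a chi-square of 3.19 per degree of freedom. The farthest pair, Control 2 and the library labelled Control 3, had 331. Precision therefore depends on differences between libraries as well as on depth.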

Additional observations from a re-analysis of the deposited data

How the results depend on the processing

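The number of all subfamilies called higher and lower was 0 and 0 in edgeR with 6 libraries, 14 and 3 in DESeq2, 58 and 3 in DESeq2 without the library labelled Control 3, and 5 and 1 in edgeR with total repeat counts only. Leaving out 1 library at a time gave 0 to 69 higher and 0 to 4 lower, and the upper values came without the library labelled Control 3. Members called numbered 0 in each of these fits except DESeq2 without that library, which called 1, MMSAT4 (log2 fold change 0.31, adjusted p = 0.0371). Total-count scaling turned MurSatRep1 to −0.013, IMPB_01 to −0.16 and the ratio of summed levels to 0.984, and it lowered the median of all subfamilies to −0.20. Adding ZP3AR to the sum, chosen after seeing the data, gave 1.12, and 1.18 without the library labelled Control 3. With the replicate block, MMSAT4 was at 0.21 (edgeR adjusted p = 0.266) and GSAT_MM at 0.54 (edgeR adjusted p = 0.400), and 0 subfamilies were called. Deviations of same-numbered libraries correlated at 0.446, 0.0173 and 0.54, and those of differently numbered libraries at −0.495 to 0.443. Deviations within a group of 3 depend on each other, so these values cannot decide whether the replicate numbers mark pairs. GSAT_MM had a positive log2 fold change in all 13 alternatives, from 0.24 to 0.73. These alternatives reuse the same few counts, so their common sign is not separate support for a rise. The 7 to 23 counts of GSAT_MM per library limit what could be detected.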
